A study of Homo sapiens with 8 samples.

Results

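The transcription factors that set up and keep the melanocyte lineage were followed as RNA in 92.1, a long-established cell line from a human uveal melanoma. The 10 genes were taken by symbol (MITF, SOX10, PAX3, LEF1, TFAP2A, IRF4, ZEB1, ZEB2, SOX9 and SNAI2), and all 10 were among the 18406 gene symbols of the deposited table. The cells, grown in RPMI with fetal bovine serum, received for 24 h either the vehicle DMSO, 10 nM trametinib, 10 nM panobinostat, or trametinib with panobinostat. Each of the 4 groups had 2 libraries, 8 in all. Trametinib blocks the kinases MEK1 and MEK2, which activate ERK, and panobinostat blocks histone deacetylases. The label of the latter's libraries also names it a MEK inhibitor, and its drug name was followed. The combination label gives 10 nM once, so 10 nM of each drug is an assumption. All libraries come from 1 cell line, and no source says that replicates were separate cultures, so p-values measure only how far these 8 libraries scatter, and that scatter may be technical.

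MITF is the master regulator of the melanocyte: it switches on pigment enzymes and melanosome genes, and its own gene is driven by SOX10, PAX3, LEF1 with beta-catenin, and cyclic AMP signalling through CREB. TFAP2A and IRF4 act beside MITF on pigment genes, and SOX9 is a relative of SOX10 that is usually low where SOX10 is high. SNAI2 and ZEB2 belong to the melanocyte, while ZEB1 is known from the dedifferentiated, invasive melanoma state. In uveal melanoma the ERK pathway is driven through G alpha q proteins.

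MITF has several starts, of which the third in RefSeq (GRCh38.p14) is the melanocyte start. The 250 bases before it are shown beside those before the first start, because this window holds the letters through which LEF1 and CREB are known to reach MITF. In the melanocyte window the capitals mark CTTTGAT, a LEF1/TCF motif 204 to 198 bases before the start, and TGACGTCA, a cyclic AMP response element 152 to 145 bases before it. Of 35116 windows of 250 bases before RefSeq starts, 2.26% held CTTTGAT and 1.65% held TGACGTCA on either strand. The window of the first start, printed without capitals, held neither. The deposited table has 1 value per symbol, so the starts cannot be told apart in the values below.
MITF start 3, chr3:69936342-69936591, + strand: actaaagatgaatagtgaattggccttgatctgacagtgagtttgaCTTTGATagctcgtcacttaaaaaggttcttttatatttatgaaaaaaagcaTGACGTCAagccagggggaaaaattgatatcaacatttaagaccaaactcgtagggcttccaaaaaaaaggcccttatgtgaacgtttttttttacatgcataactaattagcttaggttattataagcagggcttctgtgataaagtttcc
MITF start 1, chr3:69739214-69739463, + strand: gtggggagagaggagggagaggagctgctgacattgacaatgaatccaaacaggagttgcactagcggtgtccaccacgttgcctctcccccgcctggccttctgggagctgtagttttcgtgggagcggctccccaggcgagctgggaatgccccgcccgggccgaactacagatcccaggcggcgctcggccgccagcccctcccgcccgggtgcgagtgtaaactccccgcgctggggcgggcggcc

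IRF4, the gene with the largest change, is shown with GCCNNNGGC, an AP-2 motif, in capitals at 212 to 204 and at 58 to 50 bases before its start. That motif was in 19.8% of all windows. A match describes letters only.
IRF4 start 1, chr6:391502-391751, + strand: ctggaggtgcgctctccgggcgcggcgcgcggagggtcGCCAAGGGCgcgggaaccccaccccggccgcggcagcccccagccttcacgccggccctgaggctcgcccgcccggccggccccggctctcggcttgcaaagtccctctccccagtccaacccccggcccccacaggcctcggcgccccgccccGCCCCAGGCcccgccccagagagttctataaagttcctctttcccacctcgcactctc

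RefSeq windows were searched for 7 of the genes, 16 windows in all, with 8 motifs on both strands. CATGTG, the core of the MITF M-box, was in 1 window each of ZEB1 and ZEB2 (9.42% of all windows). CACCTG, an E-box bound by ZEB and SNAI proteins, was in 2 windows of ZEB1 (17.5%). CACGTG (6.34%), the SOX motif AACAAT (8.98%) and the AP-1 motif TGANTCA (6.57%) were in none of the 16 windows.

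The libraries held between 6897784 and 16861001 recovered reads, and 1 read was worth 0.602 to 1.52 in the deposited unit, a normalised count. The trametinib libraries stood apart: 3743 and 5362 genes were at 0 in replicates 1 and 2, against 2222 to 2890 in the other 6 libraries. Their values also correlated less across genes, with r = 0.897 against 0.974 to 0.991 in the other groups, over genes that are not independent replicates. The label of melanoma cells was checked on 6 melanocytic markers. MLANA, PMEL, TYR and TYRP1 were high in all libraries, with a lowest value of 1413 (TYR) and a highest of 80168 (TYRP1), whereas S100B was between 0 and 12.2. DCT was at most 14.4 with vehicle or panobinostat alone, and between 236 and 1984 in the other libraries. Endothelial markers summed to at most 4.08. The lymphoid and myeloid list summed to 1.00 to 112, nearly all of it LYZ, and the epithelial list to 20.5 to 125.

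In vehicle-treated cells, values per kilobase of the longest coding transcript in GENCODE ordered the factors. SOX10 (3550 to 3666 per kilobase in the 2 libraries) and TFAP2A (3547 to 3574) were highest and overlapped. SNAI2 followed with 1482 to 1530, MITF with 845 to 864, PAX3 with 418 to 430, ZEB2 with 206 to 207 and LEF1 with 79.8 to 85.8. SOX9 was at 20.9 to 26.2, and IRF4 (4.01 to 4.18) and ZEB1 (2.40 to 3.92) were lowest, without overlap between them. Because the sources used here name no annotation for the table, these lengths are approximate.

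With trametinib alone, 9 of the 10 factors rose and ZEB1 did not pass (limma, adjusted p under 0.05). Of all 13320 tested genes 23.7% rose and 27.4% fell. The median log2 change of the 10 factors was 1.20, beside -0.07 over all tested genes. The libraries of the groups did not overlap for 9 of the factors, which was also so for 74.5% of the tested genes. All log2 changes are on the log2(value + 1) scale, which understates changes of low genes. In bulk RNA, fewer cells of a type and less RNA per cell cannot be told apart. In the fits without trametinib replicate 1 or replicate 2 all 9 changes stayed positive. Such a fit keeps 1 trametinib library, so it cannot measure the scatter within that group.

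**Figure D1:**
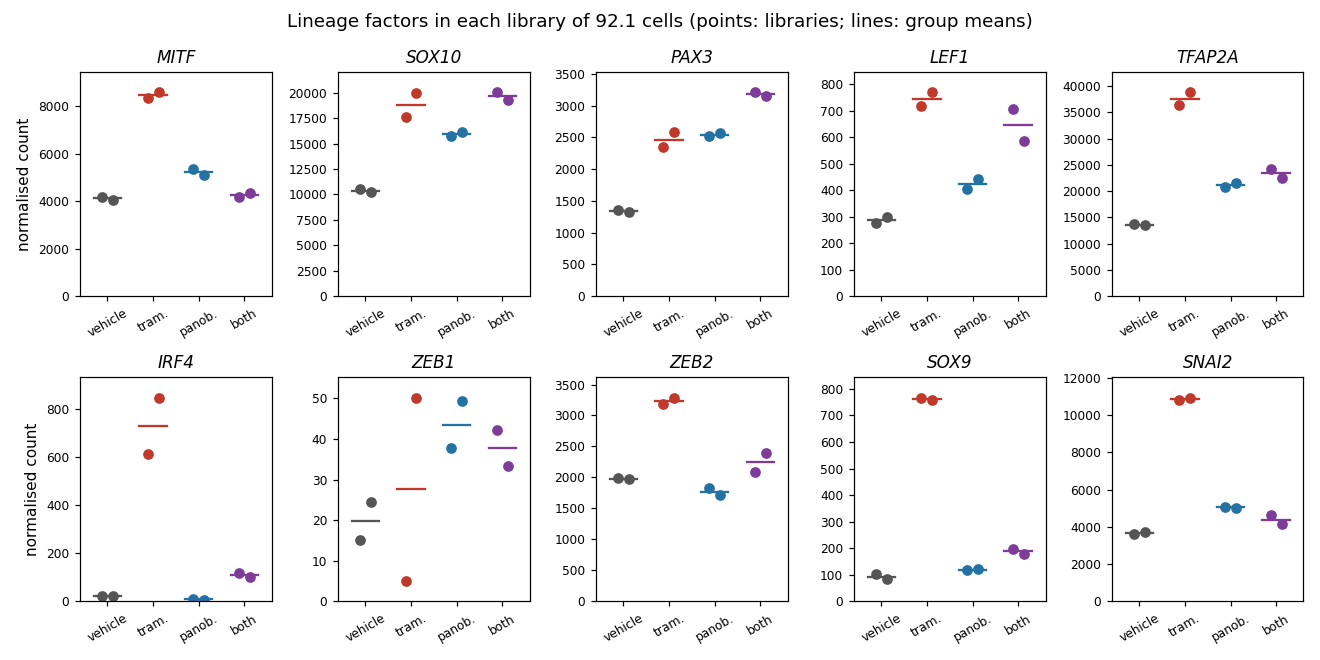
Normalised count (y axis, from 0, separate scale per gene) of each of the 10 factors in the 8 libraries, by treatment (x axis), with points for libraries and lines for group means. The 2 trametinib libraries lie above all others for MITF, LEF1, TFAP2A, IRF4, ZEB2, SOX9 and SNAI2, the 2 combination libraries include the highest value of SOX10 and PAX3, and the trametinib libraries differ from each other for ZEB1.

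MITF stood at 4158 and 4070.1 normalised counts under vehicle, 8362 and 8592 under trametinib, 5343 and 5099 under panobinostat, and 4184 and 4336 under both drugs. The trametinib libraries were the highest and stood clear of every other library, and the combination libraries were back just above vehicle. MITF rose 2.06-fold with trametinib (log2 change 1.04 ± 0.054 SE, limma adjusted p = 4.74e-07) and by a log2 change of 0.34 with panobinostat (adjusted p = 0.00144). The combination did not differ from vehicle by the test (0.05 ± 0.054, limma adjusted p = 0.472, 95% interval -0.07 to 0.17), and it was lower than trametinib alone by a log2 change of -0.99 (adjusted p = 2.61e-06).

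SOX10, which directly activates MITF, stood at 10554 and 10220 under vehicle, 17631 and 19962 under trametinib, 15788 and 16174 under panobinostat, and 20061 and 19340 under both drugs. All treated libraries lay above vehicle, and trametinib and combination libraries overlapped. SOX10 rose by a log2 change of 0.85 ± 0.062 with trametinib (limma adjusted p = 3.69e-06), 0.62 ± 0.062 with panobinostat (0.00012) and 0.92 ± 0.062 with both (2.69e-06). Combination against trametinib gave 0.07 (adjusted p = 0.409, 95% interval -0.07 to 0.21). It gave -0.02 without trametinib replicate 1 and 0.16, which passed, without trametinib replicate 2.

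PAX3, the paired-box factor of the melanoblast, stood at 1363 and 1325 under vehicle, 2345 and 2587 under trametinib, 2522 and 2567 under panobinostat, and 3210.1 and 3146 under both drugs. The combination libraries were the highest, and the single-drug libraries overlapped. The log2 changes against vehicle were 0.87, 0.92 and 1.24 (limma adjusted p = 7.04e-06, 2.71e-05 and 9.36e-07). CCDC140, a neighbour transcribed away from PAX3, went from 13.2 and 15.8 under vehicle to 91.3 and 65.4 under both drugs, a log2 change of 2.34 that passed (adjusted p = 0.0189).

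TFAP2A, the AP-2 alpha factor of neural crest and pigment cells, stood at 13687 and 13580 under vehicle, 36314 and 38816 under trametinib, 20784 and 21503 under panobinostat, and 24212 and 22485 under both drugs. The groups did not overlap, and the combination lay near panobinostat rather than trametinib in value. TFAP2A rose 2.76-fold with trametinib (1.46 ± 0.054, limma adjusted p = 6.42e-08) and by 0.63 and 0.78 with panobinostat and both drugs (adjusted p = 4.77e-05 and 3.4e-06).

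LEF1, the DNA-binding partner of beta-catenin, stood at 277 and 298 under vehicle, 719 and 769.6 under trametinib, 403 and 442 under panobinostat, and 706 and 586 under both drugs. Every treated library lay above vehicle. LEF1 rose 2.58-fold with trametinib (1.37 ± 0.13, limma adjusted p = 2.47e-05) and by 1.16 with both (7.64e-05). The change of 0.55 with panobinostat passed (adjusted p = 0.0121), but not without vehicle replicate 1 (0.0995), vehicle replicate 2 (0.0555) or panobinostat replicate 2 (0.0943).

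IRF4, which acts with MITF on tyrosinase, stood at 22.3 and 21.4 under vehicle, 612 and 846 under trametinib, 9.17 and 7.06 under panobinostat (9 and 7 reads), and 119 and 102 under both drugs. The groups did not overlap, and panobinostat libraries were the lowest. With trametinib IRF4 rose 33.4-fold (4.98 ± 0.35, limma adjusted p = 3.42e-06), the 16th largest of the rises among 13320 tested genes. It fell by 1.33 on the log2 scale with panobinostat (adjusted p = 0.0189), a call that was lost without vehicle replicate 1 (adjusted p = 0.108), vehicle replicate 2 (0.0958) or panobinostat replicate 2 (0.0889). It rose 5.07-fold with both drugs (2.29, adjusted p = 0.000534).

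SOX9, the relative of SOX10, stood at 103 and 82.3 under vehicle, 767 and 758 under trametinib, 118 and 120 under panobinostat, and 197 and 179.5 under both drugs. The trametinib libraries lay far above the rest. SOX9 rose 8.23-fold with trametinib (3.04 ± 0.19, limma adjusted p = 1.55e-06) and 2.03-fold with both (1.02, adjusted p = 0.00159), and its change of 0.37 with panobinostat did not pass (0.178). Of the Schwann and glial markers, MBP, a myelin protein, ran from 1038 to 1039 under vehicle, 3341 to 3381 under trametinib, 1049.7 to 1055 under panobinostat and 1120.4 to 1308 under both drugs. GFAP reached at most 2.01, and the part of these markers in the SOX9 and SOX10 results was not tested.

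SNAI2, a zinc-finger repressor needed by melanoblasts, stood at 3599 and 3714 under vehicle, 10785 and 10942 under trametinib, 5061 and 5035 under panobinostat, and 4618 and 4126 under both drugs. The trametinib libraries stood clear of all others. SNAI2 rose 2.97-fold with trametinib (1.57 ± 0.063, limma adjusted p = 1.01e-07) and by 0.47 with panobinostat (adjusted p = 0.000641). With both drugs the change of 0.26 passed (0.00734) but was lost without vehicle replicate 1 (0.0582) or combination replicate 1 (0.0617).

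ZEB2, the ZEB factor of differentiated melanocytes, stood at 1987 and 1974 under vehicle, 3185 and 3290.3 under trametinib, 1822 and 1718 under panobinostat, and 2093 and 2399 under both drugs. The trametinib libraries lay above all others, and the panobinostat libraries were the lowest. ZEB2 rose by 0.71 with trametinib (limma adjusted p = 6.17e-05), while -0.16 with panobinostat and 0.18 with both did not pass (0.152 and 0.0871). In limma fits of only the groups compared both passed (adjusted p = 0.0346 and 0.0448). Those fits called more of all tested genes too: 3567 rose and 3768 fell with panobinostat, and 4498 and 4452 with both drugs. In the main fit the counts were 1994 and 2075, and 3259 and 3403.

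ZEB1, its dedifferentiation-linked relative, was low in all libraries. It stood at 15.0 and 24.5 under vehicle, 5.01 and 50.2 under trametinib (5 and 50 reads), 37.7 and 49.4 under panobinostat, and 42.1 and 33.5 under both drugs. The trametinib libraries were the lowest and the highest of all 8, and they widen the spread that all groups share. In that shared fit no change of ZEB1 passed (log2 change with trametinib -0.21 ± 0.89, limma adjusted p = 0.863). Panobinostat and combination libraries lay above vehicle, by 1.13 and 0.93 (adjusted p = 0.388 and 0.419). The panobinostat change passed in a limma fit of only the groups compared (1.13 ± 0.37, adjusted p = 0.0203). That fit also called more of all tested genes: 3567 rose and 3768 fell, against 1994 and 2075 in the shared fit. The ZEB1 change with trametinib was 1.34 without trametinib replicate 1 and -1.75 without trametinib replicate 2. Its direction thus depended on which trametinib library was used. ZEB1-AS1, a transcript antisense to ZEB1, rose in each comparison with vehicle, by 1.28, 1.45 and 2.13 (adjusted p = 0.0231, 0.0213 and 0.00162); whether counting used strand is not given, so reads of the pair may mix.

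With panobinostat, 6 factors rose, 1 fell (IRF4) and 3 did not pass. Of all tested genes 15.0% rose and 15.6% fell, and the median change of the factors was 0.51 beside 0.00. With both drugs, 7 rose and 3 did not pass, where 24.5% of tested genes rose and 25.5% fell, with a median of 0.93 beside 0.03. The libraries of the groups did not overlap for any of the 10 factors in either comparison, as held for 77.2% of tested genes with panobinostat and 83.6% with both drugs. The notes list a genome build for the vehicle and trametinib libraries only, and the protocol text differs in the same way, so such a difference in handling and panobinostat cannot be told apart in the comparisons of panobinostat groups with vehicle or trametinib alone. The 3 comparisons with vehicle share the vehicle libraries.

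**Figure D2:**
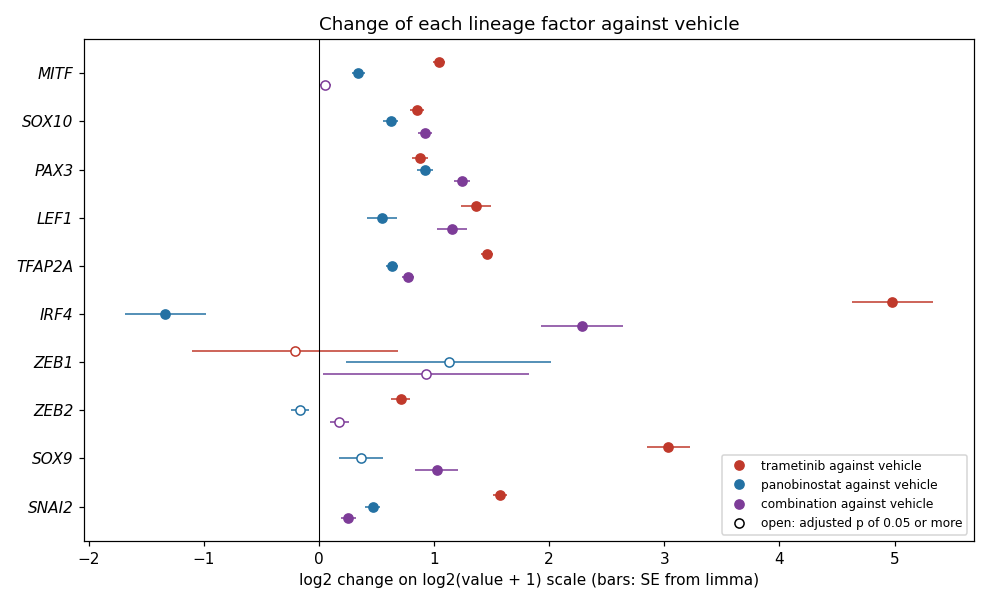
Log2 change against vehicle (x axis, with limma SE bars) of each of the 10 factors (y axis) after trametinib, panobinostat or both. IRF4 has the largest rise (4.98 with trametinib) and the only fall against vehicle that passed (-1.33 with panobinostat), and ZEB1 has the widest bars.

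Adding panobinostat to trametinib lowered 6 factors and raised PAX3 relative to trametinib alone, and 3 did not pass. Of all tested genes 17.6% rose and 15.2% fell, and the median of the factors was -0.61 beside 0.06. The largest falls were IRF4 (-2.69, limma adjusted p = 0.000453), SOX9 (-2.01, 6.77e-05) and SNAI2 (-1.32, 1.17e-06), followed by MITF (-0.99), TFAP2A (-0.69) and ZEB2 (-0.53). PAX3 rose by 0.37 (adjusted p = 0.00341). The libraries of 8 factors and of 61.8% of tested genes did not overlap.

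Adding trametinib to panobinostat, a comparison that shares no library with trametinib against vehicle, raised 6 factors and lowered MITF and SNAI2. Of all tested genes 10.9% rose and 13.1% fell, and the libraries of 9 factors and of 68.6% of tested genes did not overlap. IRF4 rose by 3.62 (limma adjusted p = 8.62e-05), and SOX9 by 0.65, LEF1 by 0.61, ZEB2 by 0.34, PAX3 by 0.32 and SOX10 by 0.30, while MITF (-0.29) and SNAI2 (-0.21) fell. Without a panobinostat or combination library several of the 8 calls were lost, and fewer of all tested genes were called too. All 8 changes kept their direction in every fit without 1 library. In the fit without an intensity trend 3 of the 8 calls passed. There 1138 of all tested genes rose and 1231 fell, against 1451 and 1740 with the trend.

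The interaction term asks whether the response to trametinib was the same with panobinostat as without it. It was negative and passed for 8 of the 10 factors, where 9.04% of tested genes had a negative and 10.2% a positive term that passed. The median was -1.04 beside 0.08 over all genes. SOX9 had the largest term (-2.38 ± 0.27, limma adjusted p = 0.000362): trametinib raised it by 3.04 alone and by 0.65 on top of panobinostat, and the combination reached 19.2% of the level that adding the log2 changes gives. SNAI2 (-1.78 ± 0.088, adjusted p = 6.61e-06, 29.1%), MITF (-1.34 ± 0.076, 1.05e-05, 39.6%) and TFAP2A (-1.32 ± 0.076, 1.07e-05, 40.1%) followed. For MITF and SNAI2 the response to trametinib changed sign, from 1.04 to -0.29 and from 1.57 to -0.21. The fall of SNAI2 on top of panobinostat was lost without either vehicle library, either panobinostat library or combination replicate 2 (adjusted p 0.0659 to 0.237), and that of MITF only in the fit without an intensity trend (0.0791).

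Smaller terms were found for LEF1 (-0.76 ± 0.19, limma adjusted p = 0.0202, 59.1% of the added level), SOX10 (-0.55 ± 0.087, 0.00226, 68.2%), PAX3 (-0.55 ± 0.098, 0.00423, 68.1%) and ZEB2 (-0.37 ± 0.11, 0.0462, 77.5%). The ZEB2 call was lost in each fit without a vehicle or panobinostat library or without combination replicate 1 (adjusted p 0.0896 to 0.166). The LEF1 call was lost in each fit without a vehicle or panobinostat library or without combination replicate 2 (0.0537 to 0.0959). IRF4 did not pass (-1.36 ± 0.50, adjusted p = 0.0905, 38.9%), and passed without trametinib replicate 1 (-1.59, 0.0168). ZEB1 was at 0.01 ± 1.3. In the fit without an intensity trend 5 terms passed: those of SOX10 (adjusted p = 0.0687), PAX3 (0.0583), LEF1 (0.0583) and ZEB2 (0.175) did not, and that of IRF4 did (0.0429).

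**Figure D3:**
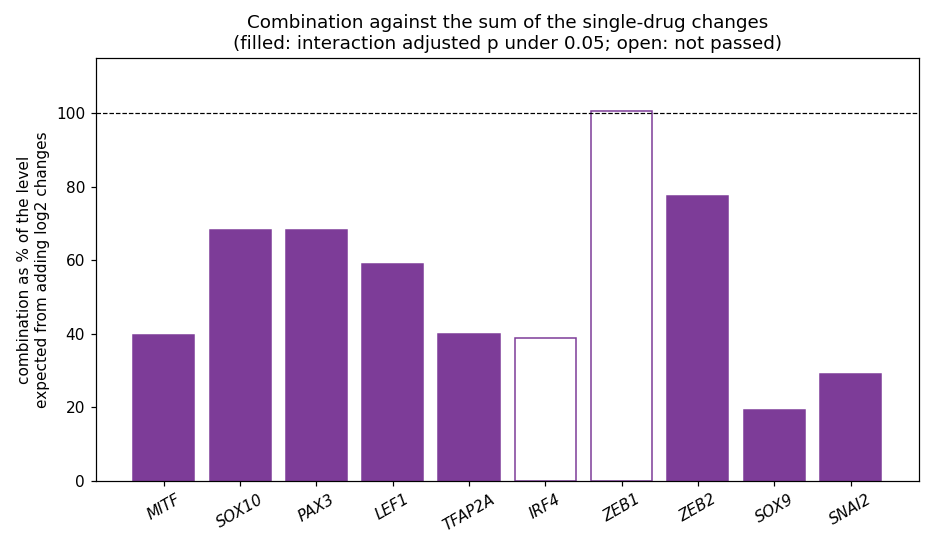
Combination level as percent of the level that the sum of the single-drug log2 changes gives (y axis, from 0) for the 10 factors (x axis), filled where the interaction passed. SOX9 is at 19.2% and ZEB2 at 77.5%, and all except ZEB1 lie under the dashed line at 100%.

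Genes that the literature gives as targets of MITF and SOX10 are pigment enzymes, melanosome proteins and the survival and receptor genes of melanocytes. Of 22 listed, 20 were tested, and the list shares TYR, TYRP1, DCT, PMEL and MLANA with the melanocytic markers. With trametinib 18 rose and 1 fell, where 23.7% of all tested genes rose and 27.4% fell, and the median was 0.96 beside -0.07 over all of them. GPNMB, a melanosome glycoprotein, rose by 1.68, OCA2, a melanosome anion transporter, by 1.79, and ERBB3, a neuregulin receptor, by 2.01. The median with both drugs against vehicle was 0.13, with 9 higher and 8 lower. Of all tested genes 24.5% rose and 25.5% fell there, with a median of 0.03. For the combination against trametinib the median of the targets was -0.98, with 16 lower and 2 higher. Of all tested genes 15.2% fell and 17.6% rose there, with a median of 0.06. The interaction was negative and passed for 16 of the 20, where 9.04% of all tested genes had such a term. Its median was -1.09 beside 0.08 over all tested genes. The terms were -3.13 for TRPM1, a melanocyte cation channel, -2.15 for MET, the HGF receptor, -1.74 for MLPH, a melanosome transport protein, and -1.12 for RAB38, a GTPase of melanosome formation.

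DCT, the dopachrome tautomerase of melanin synthesis, falls outside the naming rule and was chosen after its values were seen. It stood at 14.4 and 4.75 under vehicle, 1984 and 1912 under trametinib, 5.10 and 10.1 under panobinostat, and 258 and 236 under both drugs. The trametinib libraries were highest and the combination libraries came next. The change with trametinib was 7.69 ± 0.48 (limma adjusted p = 1.6e-06).

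**Figure D4:**
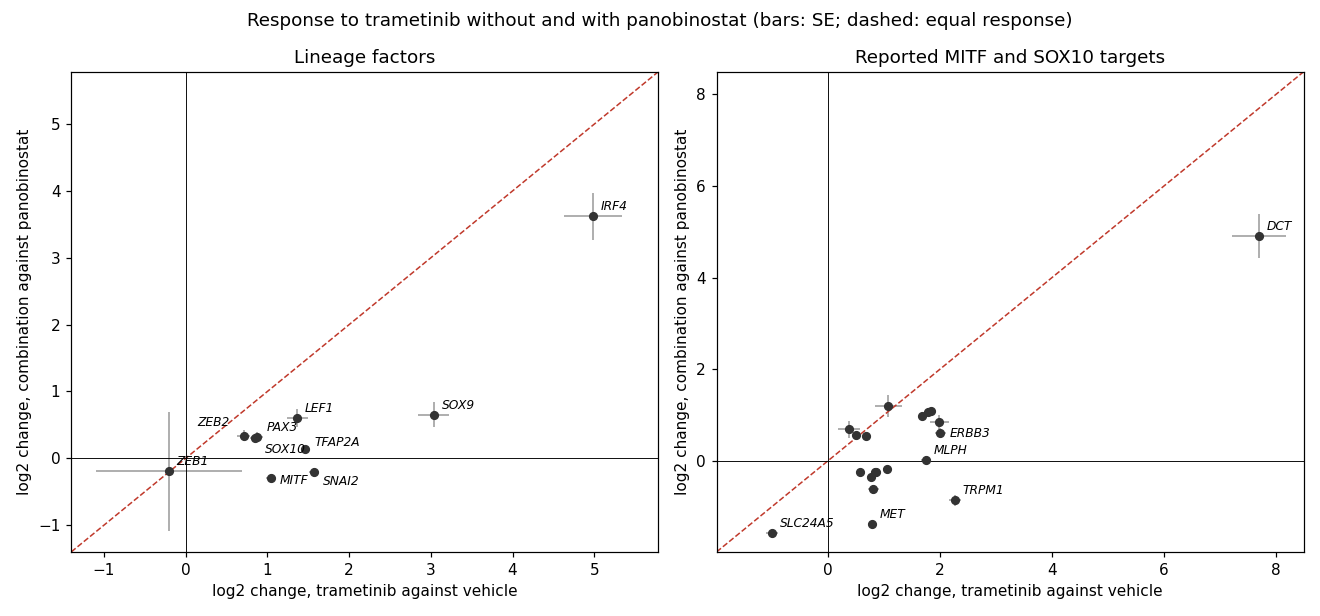
Log2 change with trametinib against vehicle (x axis) and on top of panobinostat (y axis), with limma SE bars, for the 10 factors (left) and 20 tested MITF and SOX10 targets (right); the dashed line marks equal response. MITF and SNAI2 lie under 0 on the y axis, SOX9 lies far under the line, and DCT is the farthest point of the right panel.

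The counts with trametinib in the gene lists that follow stand beside 23.7% of all tested genes that rose and 27.4% that fell, and lists of few genes with counts near those shares give no result about the list. Counts with panobinostat or both drugs carry the difference in handling named above. Among 9 tested inputs to MITF, 4 rose and 5 fell. EDNRB, the endothelin receptor of melanoblasts, went from 812 and 799 under vehicle to 7236 and 8447 under trametinib, a log2 change of 3.28 ± 0.098 (limma adjusted p = 2.48e-08), and its change was 0.93 with both drugs. CTNNB1, beta-catenin, fell by 1.42 with trametinib and by 1.20 with both drugs, the opposite direction to LEF1. GSK3B, the kinase that marks beta-catenin for removal, rose by 0.57, and CREM, a cyclic AMP response factor, fell by 0.96.

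Of 12 tested TCF/LEF partners, 5 rose and 1 fell with trametinib. TLE3, a corepressor, rose by 1.47 and BCL9, a coactivator, by 0.88, while PYGO2 fell by 0.77. Of 7 tested Wnt targets, 2 rose and 1 fell, near the shares of all tested genes. TNFRSF19 fell by 2.33 and AXIN2, a negative regulator of the Wnt pathway, rose by 1.29. With both drugs 4 of the 7 rose, TNFRSF19 among them by 1.26, where 24.5% of all tested genes rose.

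Of 9 other SOX genes tested, 3 rose with trametinib, SOX4 (1.34), SOX13 (1.98) and SOX6 (1.12), and 6 did not pass. SOX6 and SOX13 then fell in the combination against trametinib (-1.39 and -1.35), whereas SOX4 rose (0.45). Of 14 tested neural crest factors, 3 rose and 5 fell with trametinib, near the shares of all tested genes. ETS1 (1.72) and TBX3 (2.09) rose, and ID1 (-3.67) and HES1, a Notch and ERK-linked repressor (-6.08), fell. POU3F2, a neural and melanocyte factor, was at 0 in both trametinib libraries and at 25.9 and 38.8 in vehicle. Vehicle was at least 10.7-fold higher against a floor of 3 reads per library, which covers counting error only. The trametinib libraries had 3743 and 5362 genes at 0, against 2222 to 2890 in all others, and the part of this was not tested. Of 8 tested MiT/TFE genes and regulators, 6 rose with trametinib, among them FNIP1 (0.70), RRAGC (1.20) and RRAGA (0.53), and 1, FNIP2 (-0.41), fell.

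Other EMT factors gave 1 rise and 2 falls among 4 tested with trametinib: TCF3 fell by 1.06, SNAI1 by 4.36, and TWIST1 rose by 0.36. SNAI1 thus went the other way from SNAI2 (18.1 and 43.5 in vehicle, 1.00 and 0 with trametinib). The trametinib libraries had more genes at 0 than all others, and the part of this in the SNAI1 fall was not tested. Of 3 tested epithelial genes, ESRP1, an epithelial splicing factor, rose by 1.45 and the other 2 did not pass. Of 6 tested mesenchymal genes, 3 rose and 1 fell with trametinib. All 6 rose with panobinostat and with both drugs, where 15.0% and 24.5% of all tested genes rose. FN1, fibronectin, rose by 2.02 with trametinib, 1.14 with panobinostat and 2.50 with both. Fibroblast markers summed to 402 to 416 in vehicle, 806 to 1095 with trametinib, 1013 to 1016 with panobinostat and 1282 to 1325 with both. COL1A1 ran from 133 to 149 under vehicle, 511 to 821 under trametinib, 509.7 to 593 under panobinostat and 608 to 774 under both drugs. LUM was lower under trametinib (169 to 246) than under vehicle (255 to 259), and higher under panobinostat (405 to 449.6) and both drugs (502 to 592). PDGFRA ran from 7.92 to 105, DCN was at most 7.02 and COL3A1 at most 21.1, and its part in the mesenchymal result was not tested. Of 8 tested dedifferentiation markers, 2 rose and 3 fell with trametinib, with JUN up by 2.37. With both drugs 6 of the 8 rose, where 24.5% of all tested genes rose, with JUN up by 2.80.

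Of 13 tested cofactors of ZEB and SNAI proteins, 2 rose and 7 fell with trametinib, EZH2, the H3K27 methyltransferase, by 1.72. In the IRF family 2 of 6 tested rose with trametinib, IRF9 by 1.72 and IRF2 by 0.51.

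Likeness of pattern was measured as the root mean square difference of centred log2 values over the 8 libraries, among 11215 genes with a mean of at least 50. For MITF the closest were TFPT (0.0687), MYCBP2 (0.0782) and TYR (0.0949), the last a pigment enzyme. SOX10 was closest to DNAH14 (0.0355), PAX3 to TMEM209 (0.0570), LEF1 to ZC3H6 (0.0606), TFAP2A to UPP1 (0.0878) and ZEB2 to ECH1 (0.0545). SOX9 was closest to EDNRB (0.164), the endothelin receptor. SNAI2 was closest to SEMA6A (0.119). IRF4 had no near match: PRICKLE1 was closest at 0.857, and ZEB1 was closest to KIF6 at 0.332. With 8 libraries in 4 groups such likeness is a description.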

How the data were processed

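Total RNA went into a NuGEN Ovation kit meant for FFPE material, per the labels' protocols. The submitters' processing notes name TopHat2 2.0.13, Cufflinks 2.2.1 and DESeq2 (version not given), and list build hs37d5 only for libraries without panobinostat. The deposited values are a normalised signal. In each library all of them (100%) were whole multiples of 1 step within 1e-06, so reads were recovered, and 0 columns were left unused.

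Genes with a mean of at least 10 (13320) entered 1 limma 3.58.1 fit (R 4.3.3) with an intensity trend on log2(value + 1), without a replicate block, with 4 residual and 5.32 prior degrees of freedom. P-values were Benjamini-Hochberg adjusted over all of them, with a threshold of 0.05. An exact two-sided permutation test of 2 against 2 libraries cannot go below 0.333. Same-numbered libraries did not deviate together (r -0.0235 to 0.0218). edgeR 4.0.16 and DESeq2 1.42.0 on recovered reads, other scalings, pseudocounts and filters, and fits without each library were alternatives. The scripts were tested on simulated data. The members, the gene lists, the naming rule (up to 4 genes per list with the smallest adjusted p, and the 3 genes most like each factor) and the tests were chosen with earlier results of these data known. Promoters are from RefSeq, and 3 factors have no window shown or searched. Some items of the lists are not reported here.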

Additional observations from a re-analysis of the deposited data

Results flagged for a closer look

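For 8 factors the change with trametinib differed between cells with and without panobinostat by the interaction term itself (limma, adjusted over 13320 genes). The terms, in log2, were -1.34 for MITF, -0.55 for SOX10, -0.55 for PAX3, -0.76 for LEF1, -1.32 for TFAP2A, -0.37 for ZEB2, -2.38 for SOX9 and -1.78 for SNAI2. The calls of LEF1 and ZEB2 were lost in several fits that left out 1 library, and those of SOX10, PAX3, LEF1 and ZEB2 in the fit without an intensity trend. The ZEB2 call was also lost with scaling by library totals, with a minimum mean of 1, with no filter and with a replicate block.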

How the results depend on the processing

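Of 1184 alternative values for single factors (60 results under up to 20 settings), 1097 kept their direction and side of the threshold, 54 lost the call, 19 gained it and 14 reversed. Scaling by library totals gave -0.0030 for MITF with both drugs against vehicle. ZEB1 with trametinib was 0.49 by edgeR and by DESeq2, and its interaction was -0.13 with a pseudocount of 5, -0.70 by edgeR and -0.69 by DESeq2. In fits without 1 library, ZEB1 ran from -1.75 to 1.34 with trametinib, from -0.41 to 2.68 in the combination against trametinib and from -1.54 to 1.55 in the interaction, and SOX10 from -0.019 to 0.16 in the combination against trametinib. Calls among the 10 factors in those fits ran from 9 to 10 with trametinib, 5 to 8 with panobinostat, 6 to 9 with both, 7 to 9 for the combination against trametinib, 3 to 9 against panobinostat and 6 to 10 for the interaction. In each comparison, leaving out a trametinib library also raised the number of all tested genes called, and leaving out any other library lowered it. The ranges thus follow a change over all tested genes and give no result about the factors. Without an intensity trend, 3 factors passed for the combination against panobinostat and 5 for the interaction. For the first, 1138 of all tested genes rose and 1231 fell in that fit (1451 and 1740 with the trend). For the second, the counts were 862 and 738 (1361 and 1204). The cause was not tested.

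The replicate numbers did not pair the libraries. With a replicate block, 7 factors passed for the combination against panobinostat and 7 for the interaction, each 8 without it: SNAI2 (-0.21, adjusted p = 0.0505) and the ZEB2 interaction (-0.37, adjusted p = 0.0606) no longer passed in limma, and no other call on a factor changed.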
